A study of Mus musculus with 4 samples.

Results

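The clade B serpins described here are 9 genes expressed in stratified epithelia, Serpinb2, Serpinb3a, Serpinb3b, Serpinb3c, Serpinb3d, Serpinb5, Serpinb7, Serpinb8 and Serpinb12. They were taken by gene name from the array annotation, which held 14 of its 41174 gene probes for them, and 11 of these probes, for 7 of the 9 genes, were bright enough to be tested among 15552 genes. The samples were whole back skin of 10-day-old mice of mixed 129Sv and C57BL/6 strain background. In the 2 cKO animals, both Adam17 alleles carried loxP sites and were deleted by Cre driven by the keratin 14 promoter. That promoter is active in basal keratinocytes and the outer hair follicle, and cells descended from these inherit the deletion. Cells of other origin in the biopsy kept the gene. The 2 controls were Cre-negative littermates. The cross gave controls with 1 or both Adam17 alleles floxed but intact, and neither the number for each control nor the sex of the animals is stated in the labels. Each of 2 litters gave 1 cKO and 1 control animal (replicate 1 is litter 1, replicate 2 is litter 2), and each animal gave 1 array. ADAM17 is a membrane protease that sheds surface proteins, including EGF receptor ligands.

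Serpins inhibit proteases by offering an exposed loop as bait. The protease cuts the loop, the serpin changes shape, and the enzyme stays trapped and distorted. Members of clade B, related to ovalbumin, lack a classical secretion signal and act mostly inside cells. In epidermis they restrain serine and cysteine proteases of the differentiating layers, and inherited loss of some of them in humans causes disorders of thickened or peeling skin.

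Unless stated otherwise, values are log2 signal with the array's 75th percentile set to 0, and differences are cKO minus control. The biopsies carried the keratinocyte markers of skin: every one of 7 basal, 7 suprabasal and 8 granular or cornified layer genes listed was measured. Well above background were 53.7% to 56.6% of the gene spots of an array, and the 75th percentiles ran from 751 to 784 units. Adam17 itself stood at -0.14 and -0.12 in cKO skin and at 0.44 and 0.37 in control skin, which puts cKO skin at 69.0% of control (adjusted p = 0.114, limma). In bulk skin, fewer cells of a type and less RNA per cell cannot be told apart. The controls lacked Cre, so effects of Cre itself and of ADAM17 loss cannot be told apart.

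In cKO skin, Serpinb12, Serpinb3b and Serpinb3c had the largest differences among the serpins, 2.56-fold, 2.42-fold and 2.37-fold above control on average, and the cKO animal exceeded its littermate by 4.13-fold, 4.36-fold and 4.52-fold in litter 2 but by 1.58-fold, 1.35-fold and 1.24-fold in litter 1. Serpinb7 was 1.33-fold above control, nearly the same in both litters. Serpinb5, Serpinb2 and Serpinb8 were at 1.06, 0.89 and 1.15 times control. By limma over all genes, 0 of the 7 serpins passed an adjusted p of 0.05, against 53 genes or 0.341% of all genes tested. At an unadjusted p under 0.05 there were 2 of the 7, Serpinb12 and Serpinb3b, against 16.2% of all genes. Differences of at least 1 on the log2 scale upward were found for 3 of the 7 serpins and for 0.675% of all genes. This limit and its direction were not set in advance. Probes of Serpinb3b and Serpinb3c may share signal, so the 3 need not be separate. The median difference of the 7 was 0.41, beside 0.03 over all genes.

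**Figure D1:**
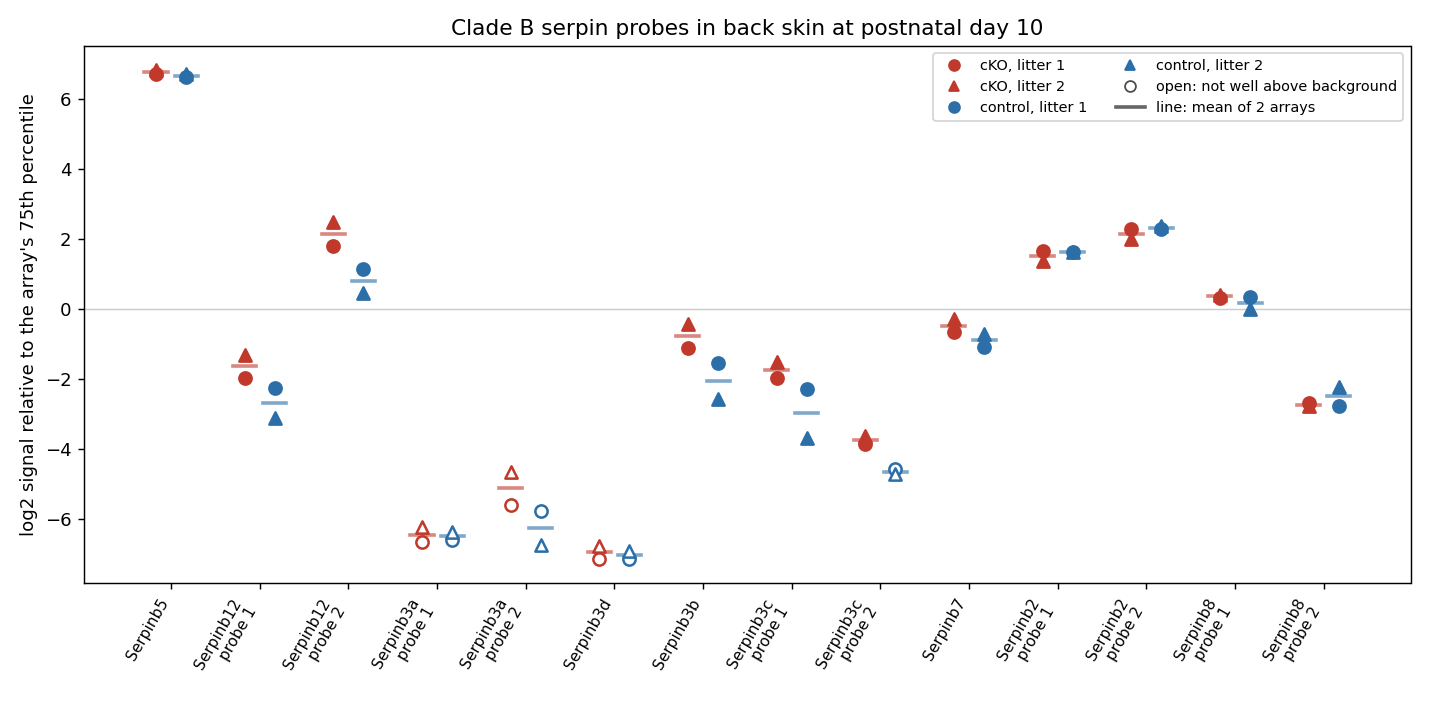
Log2 signal relative to the array's 75th percentile (vertical axis) for the 14 probes of the 9 serpins, in order of their position on chromosome 1, with cKO arrays left of control arrays. Circles are litter 1, triangles litter 2, lines the mean of 2 arrays, and open symbols mark a group not well above background. Each cKO array lies above both control arrays for both Serpinb12 probes, Serpinb3b, both Serpinb3c probes and Serpinb7. All arrays are open for Serpinb3a and Serpinb3d, where the order of arrays is not read.

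The Serpinb3 genes are the mouse counterparts of the human squamous cell carcinoma antigens SERPINB3 and SERPINB4. The human SERPINB3 protein inhibits cysteine proteases of the cathepsin S, K and L type, and SERPINB4 inhibits the serine proteases cathepsin G and chymase. Mice carry 4 such genes side by side, so the same stretch of sequence can be read from more than 1 of them. The array annotation says so for 3 of the 6 Serpinb3 probes. The probe named Serpinb3b also lists the Serpinb3a transcript, a probe named Serpinb3c also lists Serpinb3b, and a probe named Serpinb3a also lists Serpinb3c. The annotation lists at most 4 accessions for a probe, so a gene not listed may still match. The other probes of Serpinb3a, Serpinb3c and Serpinb3d list only their own gene. The 4 probes below cross a splice junction, since their 60 bases span 682 to 1093 bases of the genome, and they are shown because each is listed for more than 1 Serpinb3 gene or was not well above background on any array.
Serpinb3c probe that also lists Serpinb3b (chr1:109168602-109169283, mm9, minus strand): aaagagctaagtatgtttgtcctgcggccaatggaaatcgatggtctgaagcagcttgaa
Serpinb3a probe that also lists Serpinb3c (chr1:108945144-108945922, mm9, minus strand): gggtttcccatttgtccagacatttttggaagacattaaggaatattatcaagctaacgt
Serpinb3a probe that lists no other (chr1:108944165-108945098, mm9, minus strand): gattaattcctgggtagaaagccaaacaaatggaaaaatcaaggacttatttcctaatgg
Serpinb3d probe (chr1:108978260-108979352, mm9, minus strand): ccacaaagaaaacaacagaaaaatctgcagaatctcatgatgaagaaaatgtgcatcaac

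Serpinb3b was read by 1 probe (chr1:109050614-109050673, mm9, minus strand). It measured -1.12 in litter 1 and -0.43 in litter 2 in cKO skin, against -1.55 in litter 1 and -2.56 in litter 2 in control skin. Both cKO arrays lay above both controls, but the distance to the littermate was 0.43 in litter 1 and 2.13 in litter 2. The difference was 1.28 ± 0.42 (SE), a 2.42-fold higher mean with a 95% interval from 1.11-fold to 5.30-fold (unadjusted p = 0.0343, adjusted p = 0.273, limma). With litter as a block the interval of the difference was -0.24 to 2.80 (unadjusted p = 0.0756, adjusted p = 0.249, limma), which includes no change. The difference was 0.78 without control replicate 2, the darkest array for this probe, and 1.78 without control replicate 1. Because the probe also lists Serpinb3a, the signal cannot be given to Serpinb3b alone.

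Serpinb3c had a bright and a dim probe. The bright one (chr1:109167914-109167973, mm9, minus strand), which lists no other gene, measured -1.98 and -1.50 in cKO skin of litters 1 and 2, against -2.29 and -3.67 in control skin. As for Serpinb3b, the groups did not overlap and the control of litter 2 was the lowest array. The difference was 1.24 ± 0.50 (SE; unadjusted p = 0.063, adjusted p = 0.338, limma), made up of 0.31 in litter 1 and 2.18 in litter 2. It was 0.55 without control replicate 2 and 1.94 without control replicate 1. With normexp background correction as planned it was 1.01. It was 0.76 with a normexp correction that left out 3 spots below their local background, chosen after seeing the data. The dim probe, whose sequence is printed above and which also lists Serpinb3b, was well above background on both cKO arrays and on neither control array. It measured -3.86 and -3.62 in cKO skin, against -4.58 and -4.72 in control skin. The cKO mean of -3.74 was 1.82-fold above a raised control value. That control value takes the higher of 2 signals on each control array, the probe's own and the lowest among probes well above background. This fold is no lower bound, since the difference depends on the background correction. The measured difference was 0.91 in the main processing, 1.11 with normexp as planned and 0.29 with the 3 spots left out. Both normexp settings added an offset of 50 units, so their values are not on the scale of the main processing. With every probe tested by itself, where 0.158% of all probes passed, its adjusted p was 0.109 by limma. The probe entered that test only through the cKO arrays, and its control values lie at background. Neither the p nor the fold is therefore support for a difference.

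Serpinb3a and Serpinb3d were not well above background on any array with any probe, so they have no fold change. The Serpinb3a probe that lists no other gene read 7.64 and 10.4 units of processed signal in cKO skin and 7.76 and 9.50 in control skin, values that overlap. The Serpinb3d probe read 5.52 and 7.12 units in cKO skin and 5.35 and 6.55 in control skin, which also overlap. The Serpinb3a probe that also lists Serpinb3c read 16.1 and 30.9 units in cKO skin against 13.7 and 7.32 in control skin. These values too lie at background and give no order of the arrays.

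The upstream sequences of the 4 genes in RefSeq, 250 bases before the annotated start in the direction of the gene, were compared next. In a global alignment that counts gaps as columns, Serpinb3b and Serpinb3c, the pair with measured signal, were 88.1% identical (229 of 260 columns). Serpinb3a was 77.0% identical to Serpinb3b (211 of 274) and 71.5% to Serpinb3c (203 of 284). The annotated starts of these genes are shifted against each other, which adds gaps. The percentages therefore do not rank Serpinb3a, Serpinb3b and Serpinb3c by closeness. Serpinb3d shared 44.5%, 48.0% and 46.6% with Serpinb3a, Serpinb3b and Serpinb3c, inside the range of 42.1% to 53.1% found between all other pairs of the 9 serpins. The sequences are printed so that the windows of Serpinb3a, Serpinb3b and Serpinb3c can be set beside that of Serpinb3d, which stands apart. Capitals mark TATAAA on either strand, which 12.4% of the 32851 upstream windows of the same length in the table hold.
Serpinb3b upstream (chr1:107161115-107161364, GRCm38.p6, minus strand): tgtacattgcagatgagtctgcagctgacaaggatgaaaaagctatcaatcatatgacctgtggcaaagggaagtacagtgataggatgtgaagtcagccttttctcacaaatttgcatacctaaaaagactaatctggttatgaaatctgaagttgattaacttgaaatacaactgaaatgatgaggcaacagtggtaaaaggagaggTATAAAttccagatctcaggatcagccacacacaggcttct
Serpinb3c upstream (chr1:107278372-107278621, GRCm38.p6, minus strand): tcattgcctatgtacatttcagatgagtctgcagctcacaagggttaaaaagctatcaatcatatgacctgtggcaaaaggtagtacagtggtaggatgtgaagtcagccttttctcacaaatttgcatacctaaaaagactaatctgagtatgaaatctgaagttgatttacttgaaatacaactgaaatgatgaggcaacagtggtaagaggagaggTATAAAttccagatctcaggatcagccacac
Serpinb3a upstream (chr1:107052304-107052553, GRCm38.p6, minus strand): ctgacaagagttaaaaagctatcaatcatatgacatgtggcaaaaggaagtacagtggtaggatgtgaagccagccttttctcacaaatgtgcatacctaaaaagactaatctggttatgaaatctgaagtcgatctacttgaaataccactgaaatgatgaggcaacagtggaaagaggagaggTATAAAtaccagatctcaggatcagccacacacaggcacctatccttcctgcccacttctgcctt
Serpinb3d upstream (chr1:107083481-107083730, GRCm38.p6, minus strand): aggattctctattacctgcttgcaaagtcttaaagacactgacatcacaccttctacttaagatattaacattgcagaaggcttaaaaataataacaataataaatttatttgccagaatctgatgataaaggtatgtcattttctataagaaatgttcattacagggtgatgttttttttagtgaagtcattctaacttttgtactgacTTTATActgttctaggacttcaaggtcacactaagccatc

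In Serpinb3a, Serpinb3b and Serpinb3c the TATAAA lies on the strand of the gene, with its first base at -65, -41 and -31 counted from the start. In Serpinb3d the match is on the opposite strand. A second motif, TGANTCA, reads the same on both strands and was found in 6.75% of all windows. It is looser than the site of AP-1 transcription factors, since N stands for any base. TGANTCA was present in a window of each of the 5 other serpins (Serpinb2, Serpinb5, Serpinb7, Serpinb8 and Serpinb12) and in none of the 4 Serpinb3 windows. That count is by gene, while the share is by window. Another window of Serpinb12 lacks the motif, and the windows of Serpinb2 overlap. The letters were TGAGTCA in Serpinb7 and Serpinb8, TGAATCA in Serpinb2 and Serpinb5, and TGATTCA in Serpinb12. A match of letters is no evidence that a factor binds there, and a missing match says only that these letters are not in the window.

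Serpinb12 encodes an inhibitor of trypsin-like serine proteases that is found in many epithelia. Its bright probe (chr1:108853361-108853420, mm9, plus strand) measured 1.81 and 2.50 in cKO skin of litters 1 and 2, against 1.15 and 0.45 in control skin. Both cKO arrays lay above both controls, the cKO animal of litter 2 being the highest and its control littermate the lowest. The difference was 1.35 ± 0.34 (SE), a 2.56-fold higher mean with a 95% interval from 1.36-fold to 4.83-fold (unadjusted p = 0.0138, adjusted p = 0.199, limma). The second probe (chr1:108846179-108846238, mm9, plus strand) measured -1.97 and -1.30 in cKO skin, against -2.24 and -3.11 in control skin. It gave the same order of arrays and a difference of 1.04 (0.27 in litter 1 and 1.81 in litter 2). The bright probe differed by 0.66 in litter 1 and by 2.05 in litter 2. Leaving out 1 array at a time gave differences from 1.01 to 1.70. One of its 2 annotated upstream windows holds both motifs, in capitals here, TATAAA from position -220 and TGANTCA from position -45.
Serpinb12 upstream (chr1:106934199-106934448, GRCm38.p6, plus strand): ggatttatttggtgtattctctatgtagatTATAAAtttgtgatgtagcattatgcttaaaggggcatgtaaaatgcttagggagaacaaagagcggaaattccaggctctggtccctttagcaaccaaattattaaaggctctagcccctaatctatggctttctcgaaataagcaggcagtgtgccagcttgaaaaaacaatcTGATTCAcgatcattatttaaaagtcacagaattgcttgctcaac

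Serpinb12, Serpinb3b and Serpinb3c shared a pattern across litters. The cKO animals differed by 0.69, 0.69 and 0.48 (litter 2 minus litter 1), and the control animals by -0.70, -1.005 and -1.38. The controls of the 2 litters were at least 0.5 apart for 3 of the 7 serpins, and for 6.82% of all genes. The cKO-minus-control difference of litter 2 exceeded that of litter 1 by at least 1 for the same 3 of 7, and for 0.765% of all genes. These limits were chosen after the values were seen. With 1 pair per litter, the difference between litters could not be tested.

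**Figure D2:**
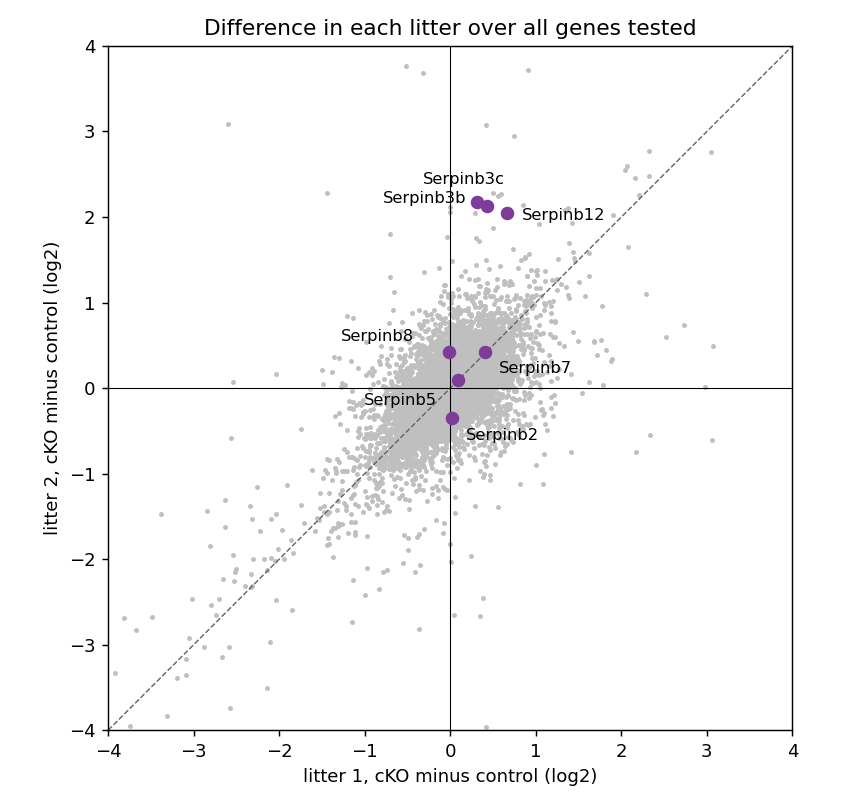
Difference cKO minus control on the log2 scale in litter 1 (horizontal axis) and litter 2 (vertical axis) for all 15552 genes (grey; 15 lie outside the plotted range) and the 7 measured serpins (purple). The dashed line marks equal differences. Serpinb3b, Serpinb3c and Serpinb12 lie above 2 in litter 2 and below 0.7 in litter 1, while Serpinb5 and Serpinb7 lie close to the line.

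Serpinb7 is a serpin of cornified epithelia whose loss in humans causes a thickening of the skin of palms and soles (Nagashima-type keratosis). Its probe (chr1:109348776-109348834, mm9, plus strand) measured -0.67 and -0.28 in cKO skin, against -1.07 and -0.70 in control skin. The groups did not overlap, and each cKO animal exceeded its littermate by almost the same amount, 0.40 and 0.42. Leaving out 1 array at a time gave 0.22 (without cKO replicate 2) to 0.61 (without cKO replicate 1). The difference was 0.41 ± 0.20 (SE; adjusted p = 0.403, limma) without litter in the model. With litter as a block it was 0.41 ± 0.06 (SE; unadjusted p = 0.0065, adjusted p = 0.122, limma), which did not change the call. In the blocked model, 2 of the 7 serpins had an unadjusted p under 0.05, Serpinb7 and Serpinb12, against 23.8% of all genes, and 0 passed after adjustment.

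Serpinb2, the plasminogen activator inhibitor type 2, blocks urokinase and tissue plasminogen activator and is made by keratinocytes and macrophages. Its brighter probe (chr1:109421496-109421555, mm9, plus strand) measured 2.29 and 2.01 in cKO skin, against 2.28 and 2.37 in control skin. Its groups overlapped, with the cKO animal of litter 2 the lowest and the other 3 close together. The difference was -0.17 ± 0.13 (SE; adjusted p = 0.577, limma), with a 95% interval from -0.51 to 0.18. Leaving out 1 array at a time gave -0.31 (without cKO replicate 1) to -0.028 (without cKO replicate 2), and normexp as planned gave -0.38. The second probe, which overlaps the first on the genome, gave -0.13.

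Serpinb8 is a serpin whose human protein inhibits the convertase furin and whose loss in humans causes peeling skin. Its brighter probe (chr1:109499452-109501197, mm9, plus strand, crossing a splice junction) measured 0.32 and 0.41 in cKO skin, against 0.33 and -0.011 in control skin. The groups overlapped, and the difference was 0.20 ± 0.15 (SE; adjusted p = 0.558, limma). The second probe, nearer the end of the transcript (chr1:109504731-109504790, mm9, plus strand), measured -2.69 and -2.76 in cKO skin, against -2.77 and -2.23 in control skin. Its difference was -0.23, so the 2 probes disagree in sign and no direction can be given for the gene.

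Serpinb5, or maspin, does not inhibit proteases and is known as a protein of epithelial cells that restrains tumour growth in mammary tissue. Its probe (chr1:108778585-108778644, mm9, plus strand) measured 6.70 and 6.82 in cKO skin, against 6.61 and 6.72 in control skin. The groups overlapped. The difference was 0.09 ± 0.10 (SE; adjusted p = 0.700, limma), with a 95% interval from 0.89-fold to 1.28-fold. With normexp background correction as planned it was -0.21, so its sign depends on the processing.

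The 9 serpins lie in 1 cluster on chromosome 1, where the probes of 12 clade B serpins fall between 108778585 and 109504790 (mm9). The 4 Serpinb3 genes are read from the minus strand and the other 8 from the plus strand. Both cKO arrays lay above both control arrays for 4 of the 7 measured serpins (Serpinb12, Serpinb3b, Serpinb3c and Serpinb7), against 28% of all genes, and below them for 0, against 21.4%. Of the 7, 5 were higher in cKO skin in both litters, against 40.4% of all genes, 0 lower in both, against 32.1%, and 2 had opposite signs, against 27.5%. Neighbours differed. Serpinb13, whose human protein inhibits cathepsins L and K, lies between Serpinb12 and the Serpinb3 genes and measured 0.46 ± 0.15 (SE; adjusted p = 0.261, limma), with 0.45 in litter 1 and 0.47 in litter 2. Serpinb11, next to Serpinb3c, measured -0.56 ± 0.10 (SE; adjusted p = 0.125, limma), with -0.64 and -0.47. Neither showed the gap between litters seen in Serpinb12, Serpinb3b and Serpinb3c.

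**Figure D3:**
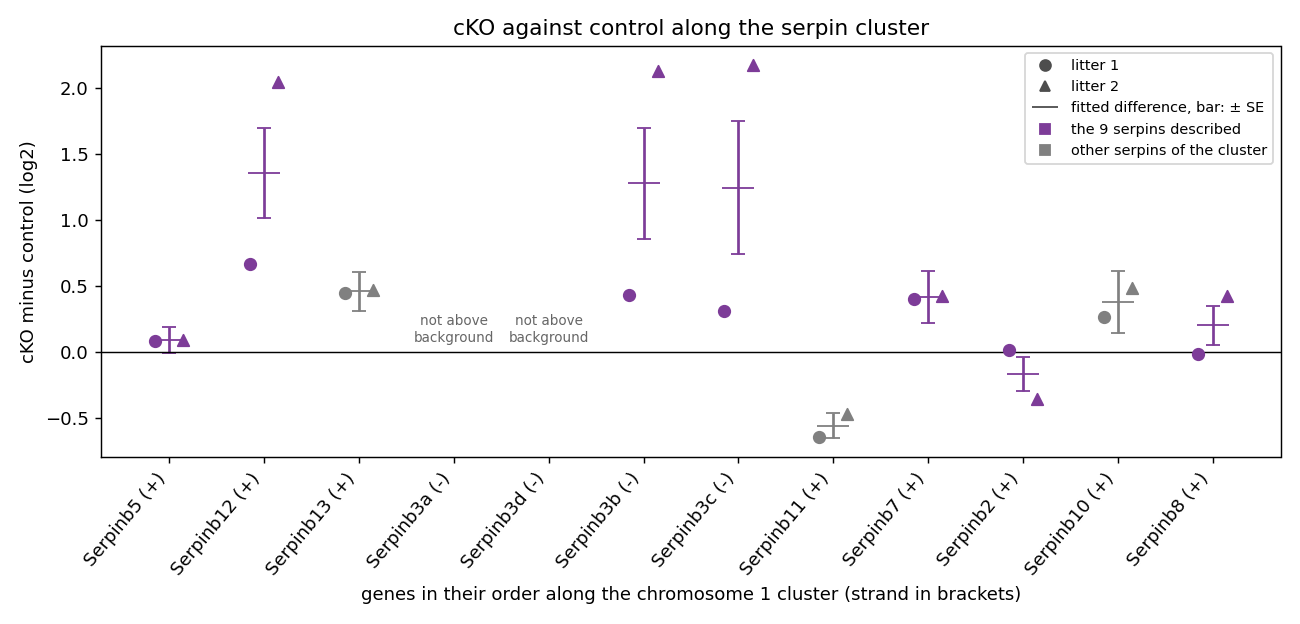
Difference cKO minus control on the log2 scale (vertical axis) for the 12 clade B serpins in their order along the chromosome 1 cluster, with the strand in brackets. Circles are litter 1, triangles litter 2, and dashes with bars the limma estimate ± SE from 4 arrays. Serpinb12, Serpinb3b and Serpinb3c show a wide gap between litters, and of the 10 genes measured only Serpinb11 is below 0 in both litters.

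The wider family and the proteases that clade B serpins act on were read from lists. Of 18 other clade B serpins listed, 10 were measured. Serpinb6e had no probe under that name, and the 7 genes of the Serpinb9 group were not bright enough. By limma 0 of the 10 passed and 2 had an unadjusted p under 0.05, Serpinb11 and Serpinb13, against 16.2% of all genes, with a median difference of 0.23. Of the 10, 8 were higher in both litters, against 40.4% of all genes, and 1 was lower in both, against 32.1%.

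Among 8 cathepsins, chymases and related proteases, all measured, 0 passed and 1 had an unadjusted p under 0.05 (limma), against 16.2% of all genes. That gene was Ctsl, encoding cathepsin L of the lysosome, at -0.29 ± 0.09 (SE; adjusted p = 0.243, limma). Ctss, encoding cathepsin S of antigen-presenting cells, measured 0.46 ± 0.19 (SE; adjusted p = 0.347, limma). The median of the 8 was -0.0083, with 3 higher and 3 lower in both litters, against 40.4% and 32.1% of all genes.

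Of 9 genes of plasminogen activation and furin-type convertases, 8 were measured, 0 passed and 0 had an unadjusted p under 0.05 (limma), with a median of -0.06. Of the 8, 3 were higher in both litters and 3 lower in both, against 40.4% and 32.1% of all genes. Serpine2, an inhibitor of thrombin and plasminogen activators, measured 0.45 ± 0.19 (SE; adjusted p = 0.347, limma), and Furin 0.13 ± 0.08 (SE; adjusted p = 0.501, limma). Of 13 kallikreins, membrane-bound serine proteases and the inhibitor gene Spink5, 11 were measured and 0 passed, while 7 had an unadjusted p under 0.05 (limma), against 16.2% of all genes. Of the 11, 6 were higher in both litters, against 40.4% of all genes, and 4 lower in both, against 32.1% (median 0.22). Tmprss4, a membrane-bound serine protease, measured 0.90 ± 0.14 (SE) and Klk8, a kallikrein of the upper epidermis, 0.92 ± 0.15 (SE), at adjusted p = 0.114 and 0.115 by limma.

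**Figure D4:**
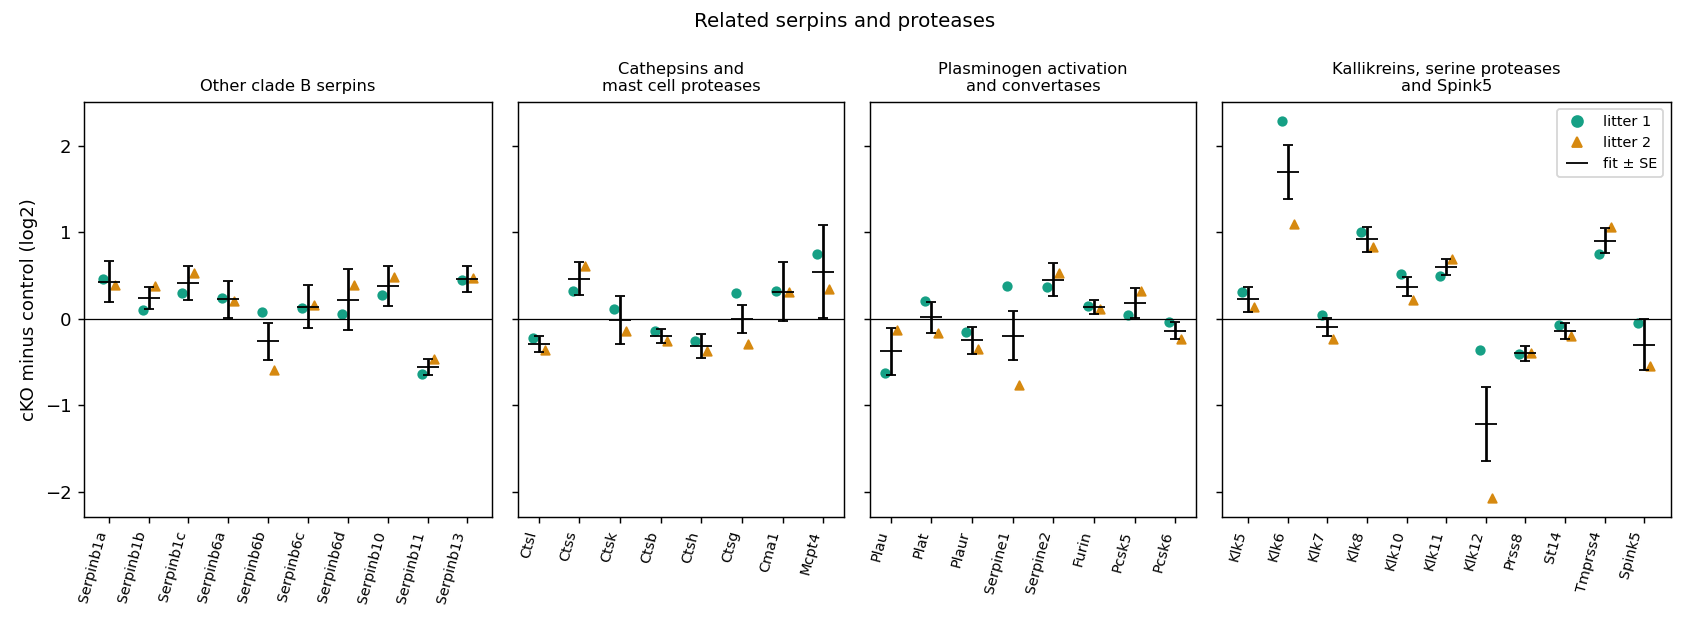
Difference cKO minus control on the log2 scale (vertical axis) for the measured genes of 4 lists, with circles for litter 1, triangles for litter 2 and dashes with bars for the limma estimate ± SE from 4 arrays. The estimates of the other clade B serpins lie between -0.56 and 0.46, and the kallikrein group spreads most widely in both directions.

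Markers of the epidermal layers were read in the same biopsies. The summed signal of the 7 suprabasal markers was 383 and 453 times the array's 75th percentile in cKO skin, against 280 and 308 in control skin. Of the 7, 6 were higher in both litters, against 40.4% of all genes (median difference 0.34, with 0.37 in litter 1 and 0.30 in litter 2). Krt1, the keratin of the first suprabasal cells, measured 1.74 ± 0.30 (SE; adjusted p = 0.127, limma), with 1.38 in litter 1 and 2.11 in litter 2, and Krt2, a keratin of the upper spinous layer, 0.78 ± 0.14 (SE). The 8 granular and cornified layer markers summed to 439 and 513 in cKO skin, against 412 and 384 in control skin. Of the 8, 5 were higher in both litters, against 40.4% of all genes, and 3 lower in both, against 32.1% (median 0.27). Casp14, a caspase of cornifying cells, measured 0.75 ± 0.10 (SE) and Hrnr, encoding hornerin, 1.10 ± 0.19 (SE). In the suprabasal list, 0 of 7 passed and 4 had an unadjusted p under 0.05. In the granular list, 0 of 8 passed and 5 had one (limma), against 16.2% of all genes. Tgm3 was among these 5 and lower in cKO skin in both litters, at -0.45 ± 0.10 (SE). Without cKO replicate 1, which leaves 1 cKO array, the Krt1 difference was 2.17. The 7 basal markers summed to 711 and 692 in cKO skin, against 647 and 657 in control skin. The 6 measured macrophage markers summed to 25.4 and 22.7 in cKO skin, against 21.1 and 13.8 in control skin, with Itgam not measured. Such a sum is set by its brightest probe, here Lyz2, and the other 5 summed to 4.73 and 4.06 in cKO skin, against 4.53 and 3.31 in control skin, which overlap. Without Krt10 the other 6 suprabasal markers summed to 133.3 and 157.7 in cKO skin, against 106.2 and 119.1 in control skin. Without Lor the other 7 granular markers summed to 60.7 and 73.6 in cKO skin, against 49.7 and 55.5 in control skin. The part of these shifts in the serpin values was not tested.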

How the data were processed

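RNA of 4 back skin biopsies was labelled with Cy3 and hybridised to 1-colour Agilent arrays of design 014868, per the labels' protocols and the file headers. The deposited scanner files give intensity values per spot, made by the authors with Feature Extraction 10.7.3.1 per the file headers (10.5 per the submitters' processing notes), with probe positions in mm9. All 4 arrays lay on 1 slide with 1 scan time, so neither could be tested as a batch. The processed signal was detrended by that software, per the file headers. The authors' deposited series table holds log2 values, whose differences between arrays followed the scanner values with a slope near 1 (column medians -0.06 and 0.08 for cKO, -0.08 and 0.06 for control), and served as an alternative.

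The 75th percentile over an array's gene spots was subtracted from its processed signals in log2. Each array lost 51 to 66 outlier spots, and the remaining spots of a probe were averaged. Kept were 22190 of 41174 probes, those well above background in both animals of at least 1 genotype, and the brightest probe stood for a gene. The test was limma 3.58.1 (R 4.3.3) of genotype, without litter in the model, two-sided, with Benjamini-Hochberg adjustment over 15552 genes. The litters in the labels pair the animals. Deviations from the group means correlated at 0.35 across genes (Spearman 0.43), and litter as a block was an alternative. The test was checked on simulated data drawn without a litter effect, so that check does not cover the pairing of the animals. The number of arrays limits the precision. Each array is 1 animal.

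The 9 serpins and the gene lists were chosen with earlier results of these data known. All 9 and their probes are named. Of the other lists, the 2 genes with the smallest p are named as values where none passed, and Tgm3 is named besides. Adam17 is named as the targeted gene. Promoter sequences are from RefSeq (GRCm38.p6) and matched all 9 by symbol. Probe sequences are those of the array files. RefSeq transcripts and proteins were not used here, and probes were not searched against other genes. Alternatives were normexp, quantile and median scaling, other filters on dim probes, other rules for a gene with several probes, and leaving out each array.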

Additional observations from a re-analysis of the deposited data

Results flagged for a closer look

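Serpinb2 and Serpinb8 differed in opposite directions in the 2 litters, which flagged them. Serpinb2 differed by 0.017 in litter 1 and by -0.35 in litter 2. Serpinb8 differed by -0.017 in litter 1 and by 0.42 in litter 2. With 1 pair per litter, the difference between litters was not tested, and 27.5% of all genes had opposite signs.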

How the results depend on the processing

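The number of serpins past the threshold was 0 under every planned and added setting, with the lowest adjusted p among the serpin genes between 0.122 (replicate block) and 0.723 (normexp as planned, limma). The direction of each serpin was kept except for Serpinb5, at -0.21 with normexp, and Serpinb8, at -0.014 with the median of its probes. Leaving out 1 array at a time gave 1.01 to 1.70 for Serpinb12, 0.78 to 1.78 for Serpinb3b, 0.55 to 1.94 for Serpinb3c, 0.22 to 0.61 for Serpinb7, 0.030 to 0.37 for Serpinb8 (lowest without control replicate 2), -0.31 to -0.028 for Serpinb2 and 0.031 to 0.15 for Serpinb5. With every probe tested by itself, the lowest adjusted p among the serpin probes was 0.109 (limma), for the dim Serpinb3c probe. With the replicate block no serpin's call changed. The count of all genes past the threshold, 53, was less stable: 0 with normexp, 109 with median centring, 0 without the filter on dim probes, 28 with probes well above background on all 4 arrays, 35 for every probe by itself, 0 with the replicate block (3706 genes at an unadjusted p under 0.05, limma), and 0 to 38 without 1 array (0 without either control). On cKO replicate 2, 3 spots lay below their local background and distorted the normexp fit. With these left out, an alternative chosen after seeing the data, 134 genes passed, and the differences of Serpinb12, Serpinb3b and Serpinb3c were 1.30, 0.94 and 0.76. The Serpinb3a probe that also lists Serpinb3c differed by 0.26 there, against 1.14, at background in both. Probes not well above background, those of Serpinb3a and Serpinb3d among them, give no fold at this signal.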

Other observations

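Markers of other cell types of the biopsies were also compared between the genotypes, with 0 genes of any of these lists past the threshold (limma). Of 5 measured T cell markers, 4 were lower in both litters and 4 had an unadjusted p under 0.05, against 32.1% and 16.2% of all genes, with a median of -0.76. Cd3g, of the T cell receptor complex, measured -0.76 ± 0.13 (SE; adjusted p = 0.123) and Cd247 -0.86 ± 0.15 (SE; adjusted p = 0.129). The 6 fat cell markers had a median of 0.59 (4 with an unadjusted p under 0.05), with Retn, encoding resistin, at 1.68 ± 0.15 (SE; adjusted p = 0.0534, limma) and Cidec at 0.64 ± 0.09 (SE). Of 7 neutrophil markers 2 were measured, S100a9 at -0.62 ± 0.28 (SE) and S100a8 at -0.27 ± 0.13 (SE), which keratinocytes can also make, while Elane, Mpo, Csf3r and Cxcr2 were not well above background on both arrays of either group and Ly6g had no probe under that name.

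Medians were 0.48 for 4 stress keratins (Krt6a at 0.80 ± 0.13 and Krt6b at 0.68 ± 0.15, SE), 0.16 for 7 basal markers (Itga6 at 0.24 ± 0.08 and Col17a1 at 0.37 ± 0.14, SE) and 0.25 for 6 macrophage markers (Cd14 at 0.33 ± 0.14 and Lyz2 at 0.57 ± 0.24, SE). They were 0.35 for 5 mast cell markers (Kit at 0.35 ± 0.12 and Tpsb2 at 0.55 ± 0.55, SE), 0.28 for 6 skeletal muscle genes (Mb at 0.84 ± 0.10 and Acta1 at 0.44 ± 0.13, SE) and -0.37 for 3 red cell genes (Slc4a1 at -0.92 ± 0.09 and Hba-a1 at -0.37 ± 0.31, SE). Sebaceous gland genes had a median of -0.56 over 5 (Fads2 at -0.56 ± 0.10 and Soat1 at -0.56 ± 0.16, SE) and inner root sheath genes -0.05 over 4 (Krt27 at -0.63 ± 0.08 and Krt25 at 0.12 ± 0.12, SE). At an unadjusted p under 0.05, where 16.2% of all genes stood, there were 2 stress keratins, 1 basal, 0 macrophage, 1 mast cell, 2 muscle, 1 red cell, 2 sebaceous, 1 root sheath and 0 neutrophil genes.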
